A study of Mus musculus with 12 samples.

Results

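The cell division genes are 40 genes of DNA replication and mitosis, chosen by name as the rows of the deposited count table whose Ensembl identifiers map to the listed symbols. All 40 were found among the 53431 rows, and all 40 were among the 15968 genes left for testing by a filter on low counts. They fall into 18 replication genes, which act when DNA is copied, and 22 mitosis genes, which act when chromosomes are sorted and the cell divides. The data are RNA sequencing libraries of mouse adipose tissue, 4 in each of 3 groups, all collected at 6 months of age from mice of mixed C57BL/6 x 129/SvJ background. The WT group had the intact Bbs2 gene and no treatment. The untreated Bbs2-/- group lacked Bbs2 by its labels and received no treatment. The treated Bbs2-/- group had the same genotype and was fed the glucosylceramide synthase inhibitor Genz667161 (GCSi) from 2 months of age, at 0.033% of feed weight. The product of Bbs2 is part of the BBSome, which carries membrane proteins to and from the primary cilium. The labels give neither the fat depot nor the sex of the mice, and they do not say whether animals were pooled. The groups allow 3 comparisons: the effect of the genotype, the effect of the inhibitor in Bbs2-/- mice, and the distance of treated Bbs2-/- mice from WT.

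A cell commits to division when cyclin E and its kinase release the E2F factors, which switch on genes for copying DNA. Replication origins are loaded with the ring-shaped Mcm helicase before S phase, and during copying the sliding clamp Pcna holds the polymerases on the template. The mitosis genes peak later, when FoxM1 and the MuvB complexes act on them, and they build the spindle, check chromosome attachment and separate the daughter cells. Mature adipocytes do not divide, so in fat these transcripts are known from adipose precursors, blood vessel cells and immune cells, including macrophages that divide in place.

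RefSeq promoter windows (GRCm38.p6, from 250 bases before to 50 after the transcription start) were at hand for 32 of the 40 genes, 15 of replication and 17 of mitosis. Ccne2, Mcm4, Gins2, Ccna2, Foxm1, Aurkb, Tpx2 and Kif20a had no entry. The windows were searched on both strands for 3 motifs known from genes of these phases. The E2F motif was taken as TTTCCCGC, or TTTGGCGC, or TTTGCCGC, or TTTCGCGC, the cell cycle genes homology region (CHR) as TTTGAA, and the CCAAT box as CCAAT. An E2F match lay in 7 of 15 replication genes (46.7%) and in 1 of 17 mitosis genes, against 2.61% of all 27025 genes with such a window and 4.46% of the 11626 tested ones. The replication genes with it were Cdc6, Cdt1, Mcm3, Mcm5, Mcm6, Mcm7 and Uhrf1, and the mitosis gene was Cdk1. A CHR match together with a CCAAT box lay in 12 of 17 mitosis genes (70.6%) and in 1 of 15 replication genes, Mcm2, against 7.97% of all genes and 6.12% of tested ones. With the 250 bases before the start alone, E2F matches were left in 5 replication genes, and CHR with CCAAT in 7 mitosis genes. These matches describe the letters of the windows and are not evidence of binding.

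The 4 windows below are examples, picked because they hold the motif of their class, and they do not compare the classes. They are the bases before the start of the replication genes Mcm6 (chr1:128359706-128359955, minus strand) and Mcm5 (chr8:75109259-75109508, plus strand), and of the mitosis genes Mki67 (chr7:135716380-135716629, minus strand) and Top2a (chr11:99024190-99024439, minus strand). Each is written 5′ to 3′ along its gene. Capitals mark E2F matches in the first pair, where neighbouring matches on opposite strands overlap, and CHR and CCAAT matches of either strand in the second pair. CCAAT matches of the first pair are left in lower case, and the CCAAT box alone lay in 9 of 15 replication and 15 of 17 mitosis genes, against 41.1% of all genes.
Mcm6: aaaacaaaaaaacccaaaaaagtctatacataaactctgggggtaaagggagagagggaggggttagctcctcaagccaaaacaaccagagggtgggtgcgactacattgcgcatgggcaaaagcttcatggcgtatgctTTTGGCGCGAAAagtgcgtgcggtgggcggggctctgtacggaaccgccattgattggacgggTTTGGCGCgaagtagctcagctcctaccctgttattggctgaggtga
Mcm5: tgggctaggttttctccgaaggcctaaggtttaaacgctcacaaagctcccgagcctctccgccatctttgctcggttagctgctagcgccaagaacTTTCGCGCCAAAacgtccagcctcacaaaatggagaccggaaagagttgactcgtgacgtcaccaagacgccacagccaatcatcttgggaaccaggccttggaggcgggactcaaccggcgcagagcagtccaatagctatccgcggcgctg
Mki67: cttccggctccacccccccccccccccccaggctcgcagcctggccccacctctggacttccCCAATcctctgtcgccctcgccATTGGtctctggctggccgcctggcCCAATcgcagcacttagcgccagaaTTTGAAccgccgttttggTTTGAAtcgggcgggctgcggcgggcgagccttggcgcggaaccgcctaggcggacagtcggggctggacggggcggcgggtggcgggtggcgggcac
Top2a: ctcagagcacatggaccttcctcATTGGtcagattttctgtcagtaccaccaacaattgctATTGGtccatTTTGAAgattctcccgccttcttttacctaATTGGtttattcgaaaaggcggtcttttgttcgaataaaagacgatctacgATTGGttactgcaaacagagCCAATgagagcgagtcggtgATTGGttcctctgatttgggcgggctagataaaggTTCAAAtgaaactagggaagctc

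Total counts per library ranged from 16317865 to 20224200. Levels are given as CPM, the usual count scaled to library size, with the library size adjusted by the TMM method. Bbs2 itself stood at 12.1 to 12.7 CPM in libraries labelled WT and at 53.7 to 70.6 CPM in both groups labelled Bbs2-/-, so its level goes against the labels if they are read as loss of the transcript. WT, untreated and treated therefore mean the libraries so labelled, and every direction below rests on these labels. The library WT 1 stood apart from the other WT libraries. Its epididymis markers summed to 1093 CPM against at most 4.65 CPM in any other library, nearly all from Crisp1, and its macrophage markers summed to 4392 CPM against 1147 to 2057 CPM in WT 2 to 4. Foxj1, the master factor of motile cilia, lay between 2.61 and 9.53 CPM in 4 libraries, namely treated 1, treated 3, WT 1 and WT 4, and did not exceed 0.14 CPM in the remaining ones. Class sums, counts and medians against WT are therefore given with and without WT 1. Other values use all WT libraries unless stated.

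Both classes were more abundant in untreated Bbs2-/- fat than in the other groups. The 18 replication genes summed to 279, 182, 167 and 184 CPM in WT, to 460, 409, 377 and 435 CPM in untreated and to 212, 209, 204 and 187 CPM in treated libraries. The 22 mitosis genes summed to 197, 56, 65.2 and 71.0 CPM in WT, to 274, 273, 245 and 274 CPM in untreated and to 97.6, 112, 130 and 55.3 CPM in treated libraries. Every untreated library lay above every WT and every treated library for both sums, while WT and treated libraries overlapped. The mean sum of untreated over WT was 2.07 for replication and 2.74 for mitosis genes, or 2.36 and 4.16 without WT 1. In whole tissue, a change in the number of dividing cells and a change in RNA per cell cannot be told apart.

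**Figure D1:**
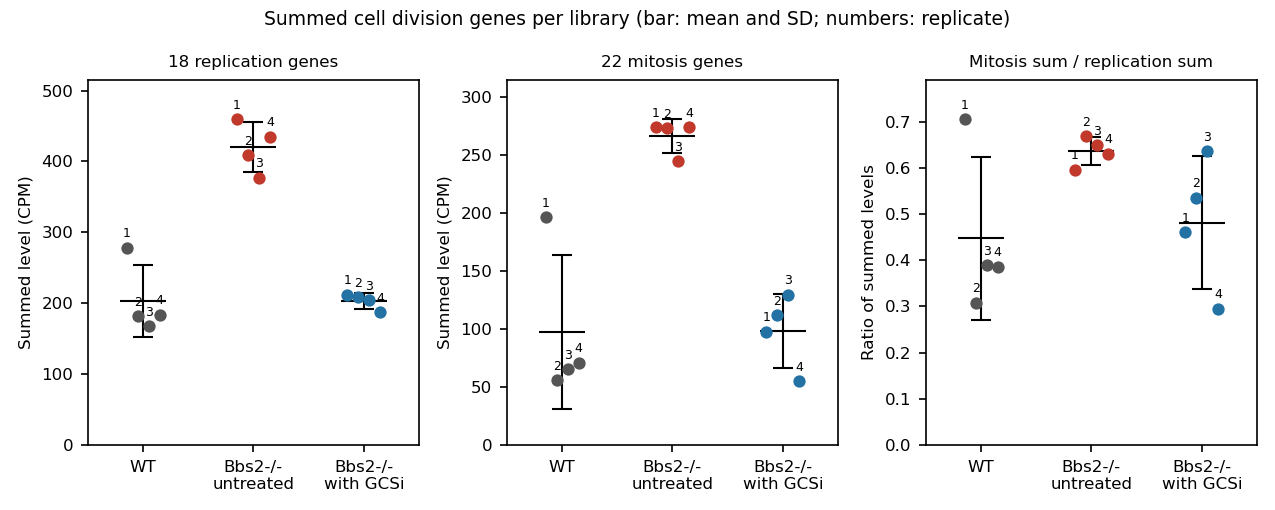
Summed CPM of the 18 replication genes and of the 22 mitosis genes, and the mitosis sum divided by the replication sum, for each library (points, numbered by replicate) with the mean and SD of the 4 libraries of a group. Untreated libraries lie between 377 and 460 CPM for replication and between 245 and 274 CPM for mitosis genes, above all other libraries, while WT 1 has the highest ratio, 0.706.

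The classes did not keep a fixed proportion. The mitosis sum divided by the replication sum was 0.597 to 0.669 in the untreated libraries, 0.308 to 0.389 in WT 2 to 4 and 0.706 in WT 1. Treated libraries spread over 0.461, 0.535, 0.636 and 0.295. WT 1 thus stood above all untreated libraries in this ratio, and treated 3 fell within their range. Pcna alone gave a large part of the replication sum. Without it the sums were 135 to 220 CPM in WT, 259 to 302 CPM in untreated and 136 to 164 CPM in treated libraries.

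**Figure D2:**
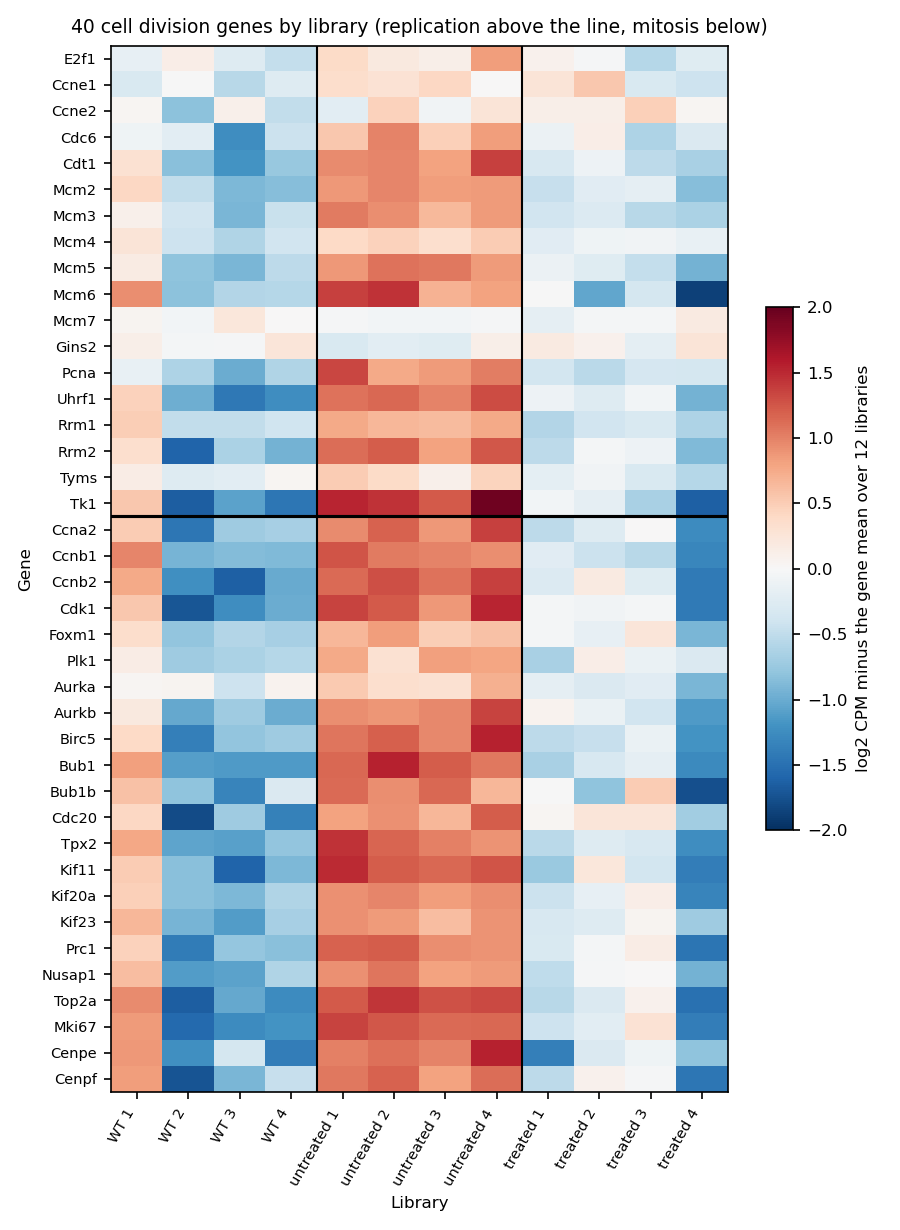
Level of each of the 40 genes (rows) in each library (columns) as log2 CPM minus the mean of the gene over the 12 libraries, with replication genes above the horizontal line and mitosis genes below it. The untreated columns are red for most genes, WT 1 is red for most mitosis genes, and Mcm7 and Gins2 stay pale in all 12 libraries.

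In untreated Bbs2-/- against WT, 13 of 18 replication genes and 21 of 22 mitosis genes rose and none fell (edgeR quasi-likelihood test, adjusted p under 0.05). Over all genes tested, 19.6% were called higher and 19.7% lower. The median log2 fold change was 1.16 for the replication genes and 1.47 for the mitosis genes, beside -0.02 for all tested genes. Ccne1, Ccne2, Mcm6, Mcm7, Gins2 and Aurka did not pass. Every untreated library lay above every WT library for 31 of the 40 genes, which held for 19.5% of all tested genes. Against WT 2 to 4 alone, a looser condition, this held for 36 genes, and the share of all tested genes meeting it was not counted. WT 1 was the highest WT library for 34 of the 40 genes, among them 21 of the 22 mitosis genes. The share of all tested genes with WT 1 highest was not counted either. Without WT 1, 14 replication and 21 mitosis genes rose, with medians of 1.36 and 2.02, and the share of all tested genes called in that fit is not given here. Without WT 2 and WT 3 together, whose library names are of another form than the rest, 6 replication and 2 mitosis genes rose. The medians were then 0.86 and 1.05. WT 1 and WT 4 were the WT libraries left, and members were called about as often as all tested genes in either direction. With the library size as the only scaling, all tested genes shifted upward by a median of 0.18, the split of calls over all genes became 4460 higher and 2005 lower in place of 3124 and 3139, and the class medians relative to all genes were 1.16 and 1.44. Nothing states that the libraries came from separate animals, and the p-values then reflect only how far these libraries spread, which may be technical.

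**Figure D3:**
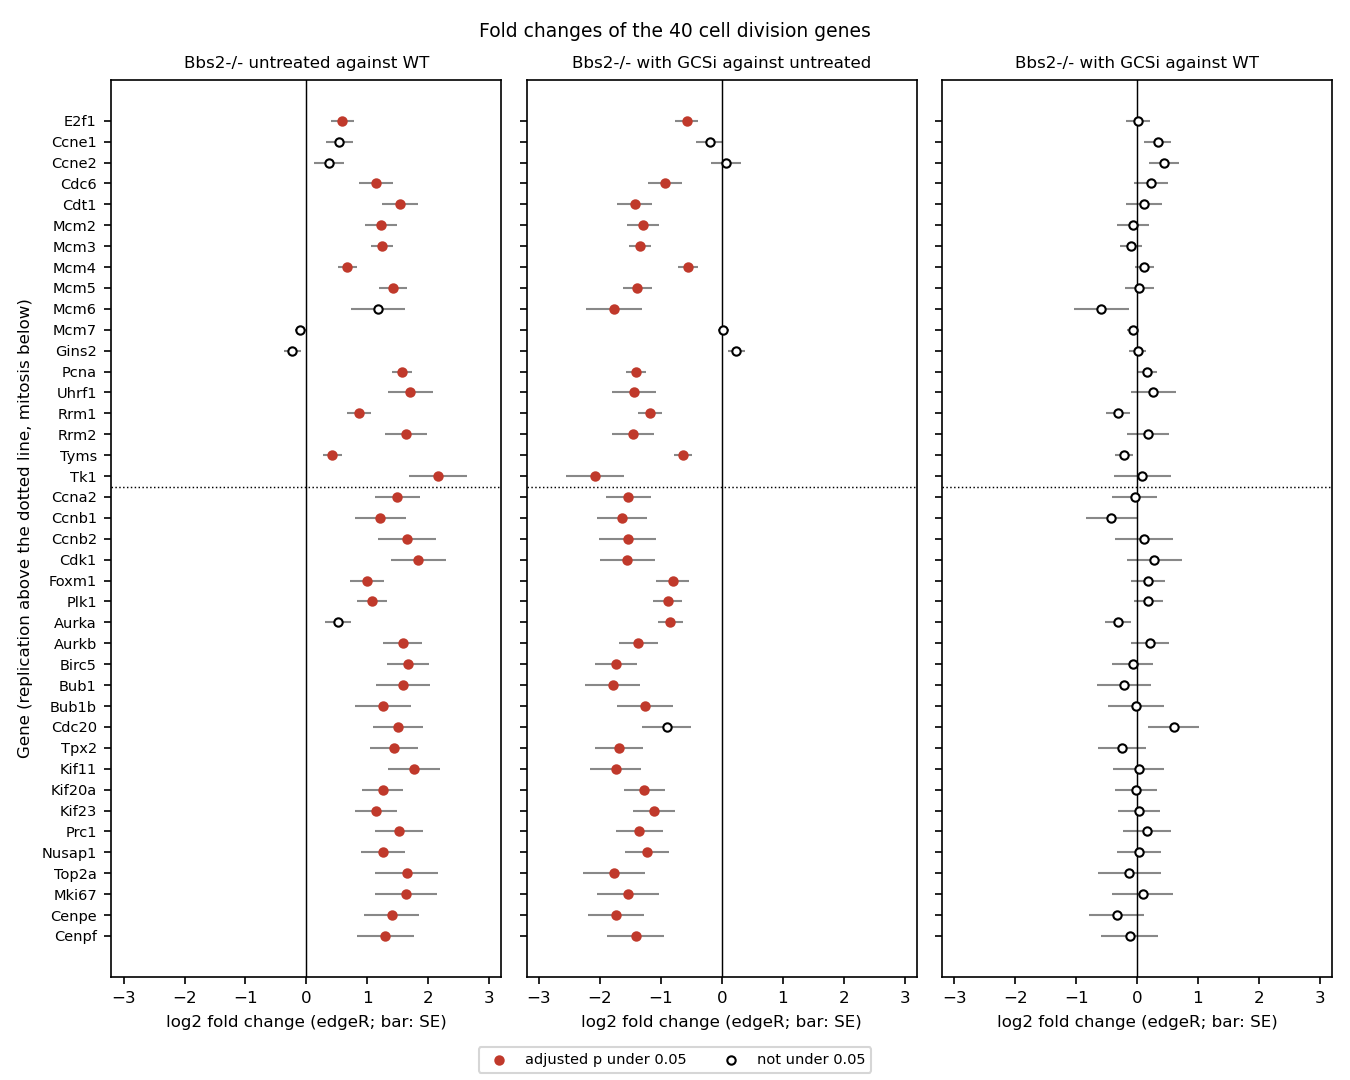
Log2 fold change with its standard error (edgeR) for each of the 40 genes in the 3 comparisons, filled where the adjusted p is under 0.05. Filled points number 34 in untreated against WT, all to the right of 0, 35 in treated against untreated, all to the left, and 0 in treated against WT.

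Of the 3 genes of entry into S phase 1 rose, and their median log2 fold change was 0.54. E2f1, the factor that switches on replication genes, was at 13.1, 16, 12.2 and 10.5 CPM in WT and at 19.0, 16.7, 15.8 and 26.2 CPM in untreated libraries. The groups overlapped at WT 2 and untreated 3. E2f1 rose by 0.59 ± 0.19 (SE) on the log2 scale (adjusted p = 0.0291). The cyclin E genes, whose proteins drive the kinase Cdk2 at the start of S phase, did not pass. Ccne1 was at 3.85 to 5.61 CPM in WT and at 5.67 to 7.49 CPM in untreated libraries, a log2 difference of 0.54 ± 0.22 (adjusted p = 0.073). Ccne2 was at 1.89 to 3.58 and 2.89 to 4.59 CPM, with 0.38 ± 0.25 (adjusted p = 0.246). The untreated libraries were all above WT for Ccne1, by a small margin, and overlapped with WT for Ccne2.

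Among the genes that load and build the replicative helicase, 6 of 9 rose. The Mcm2-7 ring has 6 subunits, which assemble in equal numbers. Mcm3 (chr1:20802968-20820312) was at 20.4, 14.6, 10.1 and 14.0 CPM in WT, 39.2, 36.3, 29.9 and 34.5 CPM in untreated and 14.6, 15.7, 12.9 and 12.2 CPM in treated libraries. Mcm5 (chr8:75109569-75128439) was at 12, 6.15, 5.71 and 7.44 CPM in WT, 19.6, 22.9, 22.2 and 19.3 CPM in untreated and 9.88, 9.04, 7.73 and 5.56 CPM in treated libraries. For both, all untreated libraries stood above all others. Mcm3 rose by 1.24 ± 0.18 (adjusted p = 0.00038) and Mcm5 by 1.42 ± 0.23 (adjusted p = 0.00076) on the log2 scale. Mcm2 rose by 1.23 and Mcm4 by 0.67, so the called subunits did not rise by one amount. Cdt1, which brings the helicase to the origin, was at 2.19 to 6.21 CPM in WT and 8.83 to 13.0 CPM in untreated libraries and rose by 1.54 ± 0.29 (adjusted p = 0.0017). Cdc6, its partner in loading, rose by 1.15 from 0.93 to 2.07 CPM in WT to 3.04 to 4.35 CPM.

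Mcm6 (chr1:128331590-128359664) was at 25.8, 7.64, 9.02 and 9.13 CPM in WT, 34.7, 36.8, 22 and 23.5 CPM in untreated and 13.4, 6.59, 10.6 and 3.72 CPM in treated libraries. WT 1 lay inside the untreated range, and the other WT libraries lay well below it. Its log2 difference between untreated and WT was 1.18 ± 0.45 (adjusted p = 0.0553), and without WT 1 it was 1.77 (adjusted p = 0.00339). DESeq2 called it on all 12 libraries (adjusted p = 0.017). Mcm7 (chr5:138164583-138172422) differed from its partner subunits. It was at 27.7, 25.6, 31.2 and 27.0 CPM in WT, 26.2, 25.8, 25.8 and 26.4 CPM in untreated and 23.6, 26.0, 26.0 and 30.4 CPM in treated libraries, with no separation of the groups. Its log2 difference was -0.10 ± 0.09 (adjusted p = 0.433), and with the library size as the only scaling it was 0.08. The 95% interval ran from -0.30 to 0.10, which leaves out the fold changes of the other 5 subunits. Gins2, a subunit of the GINS complex that completes the active helicase, was at 9.66 to 11.7 CPM in WT and 8.04 to 10.8 CPM in untreated libraries (-0.23 ± 0.14, adjusted p = 0.212).

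**Figure D4:**
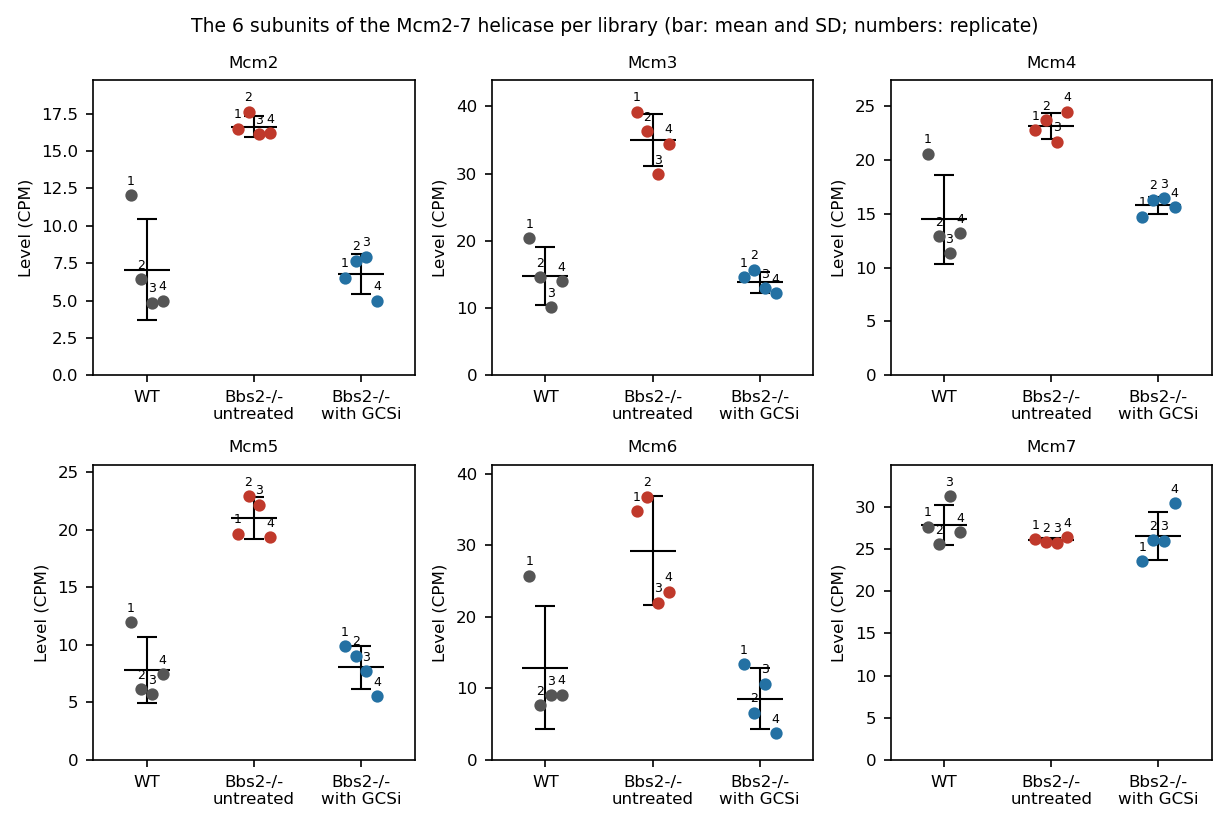
Level in CPM of each of the 6 subunits of the Mcm2-7 helicase per library (points, numbered by replicate), with the mean and SD of each group. Mcm2 to Mcm6 are highest in the untreated libraries, with WT 1 close to or inside their range for Mcm4 and Mcm6, while Mcm7 lies between 23.6 and 31.2 CPM in all 12 libraries.

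The exons of Mcm7 share bases with Cops6 and Ap4m1 on the other strand and hold the microRNA genes Mir25 and Mir93. Of the 40 genes, 10 share exon bases with a gene on the other strand, namely Ccna2, Ccne2, Cdc20, Gins2, Kif20a, Mcm7, Nusap1, Plk1, Prc1 and Tk1. The libraries are stranded, but the labels do not state whether the counting used strand, and without it reads of such pairs cannot be told apart. Of the 10 genes, 7 rose in untreated against WT and 3, Ccne2, Gins2 and Mcm7, did not pass. Foxm1 and Top2a share bases with genes on their own strand. The part of shared reads in these values was not tested.

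The sliding clamp gene and the gene for copying DNA methylation rose, 2 of 2. Pcna (chr2:132249162-132253314), the clamp that holds DNA polymerases to the template, was at 59.0, 42.4, 32.9 and 42.9 CPM in WT, 164, 111, 118 and 133 CPM in untreated and 50.4, 45.0, 52.0 and 51.0 CPM in treated libraries. All untreated libraries stood far above all others, and WT and treated libraries overlapped. Pcna rose by 1.57 ± 0.17 on the log2 scale (adjusted p = 8.82e-05), the smallest p of the 40 genes. Uhrf1, which brings the maintenance DNA methyltransferase to freshly copied DNA, was at 9.91, 3.65, 2.65 and 3.02 CPM in WT and 15.2, 16, 14.3 and 17.7 CPM in untreated libraries. It rose by 1.71 ± 0.37 (adjusted p = 0.00371).

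All 4 genes of nucleotide supply rose. Tk1 (chr11:117815526-117826092), the thymidine kinase of S phase, was at 7.13, 1.55, 2.32 and 1.80 CPM in WT, 14.1, 13.4, 11.5 and 18.9 CPM in untreated and 4.71, 4.30, 3.12 and 1.57 CPM in treated libraries. The untreated libraries were all higher, and its log2 fold change of 2.16 ± 0.48 (adjusted p = 0.00419) was the largest of the 40 genes in the fit of all libraries. Rrm2, the ribonucleotide reductase subunit that is made in S phase, was at 1.62 to 6.21 CPM in WT and 8.63 to 11.7 CPM in untreated libraries and rose by 1.64 ± 0.35 (adjusted p = 0.00308). Its partner Rrm1, which is made more steadily, went from 14.5 to 28.6 CPM in WT to 31.6 to 34.6 CPM and rose by 0.87 ± 0.20 (adjusted p = 0.00475). Tyms, thymidylate synthase, rose least of the 4, by 0.42, with 6.96 to 9.20 CPM in WT and 8.93 to 11.9 CPM in untreated libraries.

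The mitotic cyclins, their kinase and the factor FoxM1 all rose, 5 of 5. Cdk1, the kinase that drives entry into mitosis, was at 8.66, 1.82, 2.52 and 3.02 CPM in WT, 15.3, 14.1, 10.9 and 17.2 CPM in untreated and 5.85, 5.72, 5.82 and 2.26 CPM in treated libraries. Ccna2, the cyclin of S phase and early mitosis, was at 11.8, 3.04, 5.04 and 5.23 CPM in WT and 15.9, 18.7, 15.1 and 21.3 CPM in untreated libraries. In both genes WT 1 lay between the other WT libraries and the untreated ones. Cdk1 rose by 1.83 ± 0.45 (adjusted p = 0.00766) and Ccna2 by 1.49 ± 0.37 (adjusted p = 0.00751). Foxm1, the factor that switches on many mitosis genes, was at 4.73 to 10.3 CPM in WT and 11.4 to 14.5 CPM in untreated libraries and rose by 0.99 ± 0.28 (adjusted p = 0.0141). The cyclins B, partners of Cdk1, rose by 1.21 (Ccnb1) and 1.66 (Ccnb2) on the log2 scale. WT 1 at 7.35 CPM overlapped with the lowest untreated library at 7.18 CPM for Ccnb1.

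Of 7 mitotic kinases and checkpoint genes, 6 rose. Aurkb, the kinase of the chromosomal passenger complex, was at 4.08, 1.76, 2.19 and 1.80 CPM in WT and 6.86, 6.57, 6.94 and 9.11 CPM in untreated libraries. Birc5 (survivin), its partner in that complex, was at 1.96 to 6.64 CPM in WT and 9.83 to 14.6 CPM in untreated libraries. The groups did not overlap for either gene. Aurkb rose by 1.58 ± 0.32 (adjusted p = 0.00241), Birc5 by 1.67 ± 0.34 (adjusted p = 0.00262), and Plk1, a kinase of spindle assembly, by 1.08 ± 0.24 (adjusted p = 0.00455). Aurka, the kinase of spindle poles, was at 2.59 to 3.60 CPM in WT and 4.24 to 5.62 CPM in untreated libraries. The groups did not overlap, but its log2 difference of 0.52 ± 0.21 did not pass (adjusted p = 0.0671), while DESeq2 called it (adjusted p = 0.0459). The checkpoint genes Bub1, Bub1b and Cdc20 rose by 1.58, 1.25 and 1.5.

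All 6 genes of the spindle and of cytokinesis rose. Kif11, the motor that pushes spindle poles apart, was at 6.04, 2.36, 1.39 and 2.27 CPM in WT and 12, 9.83, 9.43 and 10.2 CPM in untreated libraries. Prc1, which bundles the central spindle, was at 2.36 to 8.55 CPM in WT and 11.6 to 14.4 CPM in untreated libraries. In neither did the groups overlap. Kif11 rose by 1.77 ± 0.42 (adjusted p = 0.00616), Prc1 by 1.52 ± 0.39 (adjusted p = 0.0094) and Kif20a, a motor of cytokinesis, by 1.25 ± 0.34 (adjusted p = 0.0122). Tpx2, Nusap1 and Kif23 rose by 1.44, 1.26 and 1.14, with WT 1 at 7.79 CPM inside the untreated range of 7.54 to 9.17 CPM for Kif23.

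The 4 genes of chromosomes and kinetochores rose. Mki67 (chr7:135689784-135716361), which coats mitotic chromosomes and is the usual stain for cycling cells, was at 36.0, 6.82, 8.36 and 8.72 CPM in WT, 51.2, 47.6, 43.8 and 44.4 CPM in untreated and 15.1, 17.3, 24.3 and 7.71 CPM in treated libraries. Top2a (chr11:98992943-99024189), the topoisomerase that untangles sister chromosomes, was at 22.6, 3.72, 5.77 and 4.88 CPM in WT, 27.4, 31.4, 28.3 and 29.2 CPM in untreated and 7.97, 9.53, 12.5 and 4.14 CPM in treated libraries. In both genes WT 1 stood near the untreated libraries and far above the other WT libraries. Mki67 rose by 1.63 ± 0.51 (adjusted p = 0.0243) and Top2a by 1.64 ± 0.52 (adjusted p = 0.0255). Without WT 1 they rose by 2.55 and 2.60. Cenpe, a kinetochore motor, rose by 1.40 ± 0.45 (adjusted p = 0.0271) and Cenpf, a kinetochore protein, by 1.29. WT 1 at 5.61 CPM was above the lowest untreated library at 5.49 CPM for Cenpf.

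In treated against untreated Bbs2-/- fat most of the 40 genes fell. Of the 18 replication genes 14 fell and of the 22 mitosis genes 21 fell, and none rose. Over all tested genes, 18.8% were called lower and 18.5% higher. The median log2 fold change was -1.23 for replication and -1.47 for mitosis genes, beside 0.03 for all tested genes. Every untreated library lay above every treated library for 36 of the 40 genes, all 22 mitosis genes among them, which held for 20.7% of all tested genes. The untreated libraries serve both comparisons, so the rise and the fall are not independent of each other. Without treated 4, which had the lowest mitosis sum of its group, 13 replication and 13 mitosis genes fell, and the mitosis median was -1.24. The share of all tested genes called without treated 4 is not given here, so the smaller count cannot be assigned to the members. With the library size as the only scaling, all tested genes shifted by a median of -0.13, calls over all genes were 2095 higher and 3802 lower in place of 2947 and 3000, and the class medians relative to all genes were -1.26 and -1.5.

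Among the replication genes, Tk1 fell furthest, by 2.08 ± 0.47 on the log2 scale (adjusted p = 0.00535). Pcna fell by 1.41 ± 0.17 (adjusted p = 0.000138), Mcm3 by 1.34 ± 0.18 (adjusted p = 0.000273) and Mcm5 by 1.38 ± 0.23 (adjusted p = 0.000887). Mcm6, which missed the threshold against WT, passed here and fell by 1.77 ± 0.45 (adjusted p = 0.0106). The 4 replication genes that did not pass were Ccne1, Ccne2, Mcm7 and Gins2. Ccne1 spread over 4.25 to 8.22 CPM in treated libraries around the untreated range (-0.20 ± 0.22, adjusted p = 0.515). Ccne2 was at 3.46 to 4.66 CPM in treated libraries (0.07 ± 0.24, adjusted p = 0.855), a difference that was -0.06 with the library size as the only scaling. Mcm7 had a log2 difference of 0.03 ± 0.09 (adjusted p = 0.854), which was -0.11 in that scaling, and Gins2 one of 0.24 ± 0.14 (adjusted p = 0.195).

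Among the mitosis genes, the largest falls were those of Bub1, a checkpoint kinase, by 1.79 ± 0.45 (adjusted p = 0.00831) and of Top2a by 1.77 ± 0.52 (adjusted p = 0.0197). Mki67 fell by 1.54 ± 0.50 (adjusted p = 0.0326) and Cdk1 by 1.55 ± 0.45 (adjusted p = 0.0176). Aurka, which missed the threshold against WT, fell by 0.84 ± 0.21 (adjusted p = 0.00879), from 4.24 to 5.62 CPM in untreated to 1.84 to 3.05 CPM in treated libraries. Cdc20, the activator of the anaphase-promoting complex, was the mitosis gene that did not pass. It was at 4.90, 5.29, 4.44 and 6.52 CPM in untreated and 2.90, 3.32, 3.33 and 1.73 CPM in treated libraries. Its groups did not overlap, and its log2 difference was -0.90 ± 0.40 (adjusted p = 0.0968). Without WT 1 in the shared fit, Cdc20 passed at the same difference (adjusted p = 0.0216).

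In treated Bbs2-/- against WT, 0 of 18 replication and 0 of 22 mitosis genes passed. In edgeR with all 12 libraries, 0 of the 40 had an unadjusted p under 0.05, beside 10.6% of all tested genes. DESeq2, limma-voom and limma on the log2 FPKM values also called 0 of them. Over all tested genes 0.257% were called, 41 genes. The median log2 fold change was 0.06 for replication and 0.01 for mitosis genes. These values depended on WT 1. Without it the medians were 0.33 and 0.57, and 14 of the 40 genes (6 replication, 8 mitosis) had an unadjusted p under 0.05, all higher in treated libraries, beside 14.9% of all tested genes. None of the 14 passed after adjustment. The smallest adjusted p was that of Uhrf1, with a log2 difference of 0.90 ± 0.21 (adjusted p = 0.0968), and Mki67 differed by 1.01 ± 0.30 (adjusted p = 0.162). With all 12 libraries, of 2 genes chosen after their values were seen, Pcna differed by 0.16 (95% interval -0.20 to 0.52) and Mki67 by 0.10 (95% interval -1.0 to 1.2). The interval of Mki67 spans a change as large as 1 on the log2 scale in either direction, so with all 12 libraries such a difference was not detectable. The mean mitosis sum of treated libraries was 1.01 times that of WT, and 1.54 times that of WT 2 to 4. Of the treated libraries, treated 1 to 3 (97.6 to 130 CPM) lay above WT 2 to 4 (56 to 71.0 CPM), and treated 4 (55.3 CPM) lay just below them.

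Per transcript length, the genes covered a wide range. In FPKM (fragments scaled by transcript length and library depth), Pcna was highest in every group, with 32.4 ± 7.94 (SD, n = 4) in WT, 91.0 ± 15.3 in untreated and 35.7 ± 2.30 in treated libraries. In WT the next were Mcm7 (10.4 ± 0.93 FPKM), Mcm3 (5.40 ± 1.57), E2f1 (5.23 ± 0.92) and Rrm1 (5.06 ± 1.93), of which the last 3 did not differ beyond their spread. In untreated libraries the next were Mcm3 (12.1 ± 1.25 FPKM), Cdk1 (10.8 ± 2.11), Birc5 (10.7 ± 1.91), Tk1 (10.6 ± 2.28) and Mcm6 (10.2 ± 2.51), which lay within their spread of each other, with Mcm7 after them at 9.25 ± 0.08. In WT, Cdk1, Birc5 and Tk1 had been at 3.09, 3.28 and 2.47 FPKM. Cenpf was lowest in all groups, with 0.26 ± 0.21 FPKM in WT and 0.61 ± 0.06 in untreated libraries.

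The rest of the cell cycle was described by 9 lists of 150 further genes, counted in the same fit. Their counts stand beside all tested genes, of which 19.6% rose and 19.7% fell in untreated against WT, and 18.5% rose and 18.8% fell in treated against untreated. In 3 of these lists more than 10 genes rose. Of 20 genes of entry into mitosis and cytokinesis 16 rose and 0 fell in untreated against WT, and 0 rose and 14 fell in treated against untreated. Of 20 centromere and kinetochore genes 13 rose and 1 fell, then 1 rose and 12 fell. Of 23 genes of replicative polymerases, clamp loading and fragment joining 12 rose and 2 fell, then 1 rose and 14 fell. Their medians in untreated against WT were 1.34, 1.22 and 0.51. Examples were Incenp, the scaffold of the passenger complex (1.52 ± 0.23, then -1.34 ± 0.23), Ska3 of the kinetochore (1.87 ± 0.37, then -1.39 ± 0.36), and Lig1, which joins Okazaki fragments (1.29 ± 0.19, then -1.36 ± 0.19). Cdca3, Mis12 and Pold3 rose by 0.92, 0.44 and 0.62 and fell by 1.09, 0.34 and 0.80.

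In the list of 19 genes of the spindle checkpoint and the anaphase-promoting complex, 2 rose and 1 fell in untreated against WT, with a median of -0.01, and then 1 rose and 4 fell. Mad2l1, a checkpoint protein, rose by 1.21 ± 0.18, while Anapc5, a subunit of the complex, fell by 0.37 ± 0.08 on the log2 scale. Of 18 genes of origin recognition and firing 5 rose and 2 fell, then 4 rose and 5 fell, with Gmnn, the inhibitor of Cdt1, at 1.18 ± 0.20 and then -1.23 ± 0.20, and Mcm10 at 1.79 ± 0.39 and then -1.25 ± 0.38. Of 16 condensin and cohesin genes 6 rose and 2 fell, then 0 rose and 6 fell, with the condensin genes Ncaph at 1.02 and Smc4 at 0.73 in the first comparison. Of 18 genes of the Rb and E2F families and their complexes 6 rose and 3 fell, then 2 rose and 2 fell, with Lin52, a MuvB subunit, falling by 0.91 ± 0.10 and Tfdp2, a partner of E2F proteins, falling by 0.66 ± 0.13. The log2 fold changes of this list ran from -0.91 to 2.51 in untreated against WT.

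Of 9 G1 cyclins and kinases 4 rose and 1 fell, then 3 rose and 5 fell. Cdk6, a kinase of cyclin D, rose by 1.82 ± 0.29 (adjusted p = 0.000731) and Ccnd1, cyclin D1, by 1.04 ± 0.20 (adjusted p = 0.00192), and in treated against untreated they fell by 1.75 and 0.86. Of 7 inhibitors of cell cycle kinases 2 rose and 2 fell, then 2 rose and 2 fell. Cdkn1c (p57) fell by 1.54 ± 0.19 (adjusted p = 0.000162) and Cdkn2c (p18) fell by 0.95 ± 0.14 (adjusted p = 0.00035) in untreated against WT, and in treated against untreated they rose by 1.21 and 1.31. The inhibitors did not move together. Their log2 fold changes ran from -1.54 to 2.18 in untreated against WT and from -2.79 to 1.31 in treated against untreated. Over all 9 lists 66 genes rose and 14 fell, then 14 rose and 64 fell. In treated against WT 0 of 150 passed, and DESeq2 called 1. There, 12 of the 150 had an unadjusted p under 0.05 in edgeR, beside 10.6% of all tested genes.

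Markers of macrophages moved in the same direction as the division genes. All 16 macrophage markers were detected, and 14 of them rose in untreated against WT, 15 fell in treated against untreated and 0 passed in treated against WT. Over all tested genes, 19.6% rose in untreated against WT, 18.8% fell in treated against untreated and 0.257% were called in treated against WT. The last share is so low that 0 of 16 does not set these markers apart. Their summed level was 1147 to 4392 CPM in WT, 8926 to 12896 CPM in untreated and 1038 to 2538 CPM in treated libraries. Lyz2 had the highest mean of the 16 in each group. Among the WT libraries WT 1 had the highest macrophage sum and the highest division sums. The 2 quantities did not move in proportion. The sum of all 40 genes per 1000 CPM of macrophage markers was 108 to 203 CPM in WT, 56.9 to 69.7 CPM in untreated and 122 to 262 CPM in treated libraries, so the untreated libraries were lowest by this ratio without overlap. The part of macrophages or of other cells in the division genes was not tested.

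**Figure D5:**
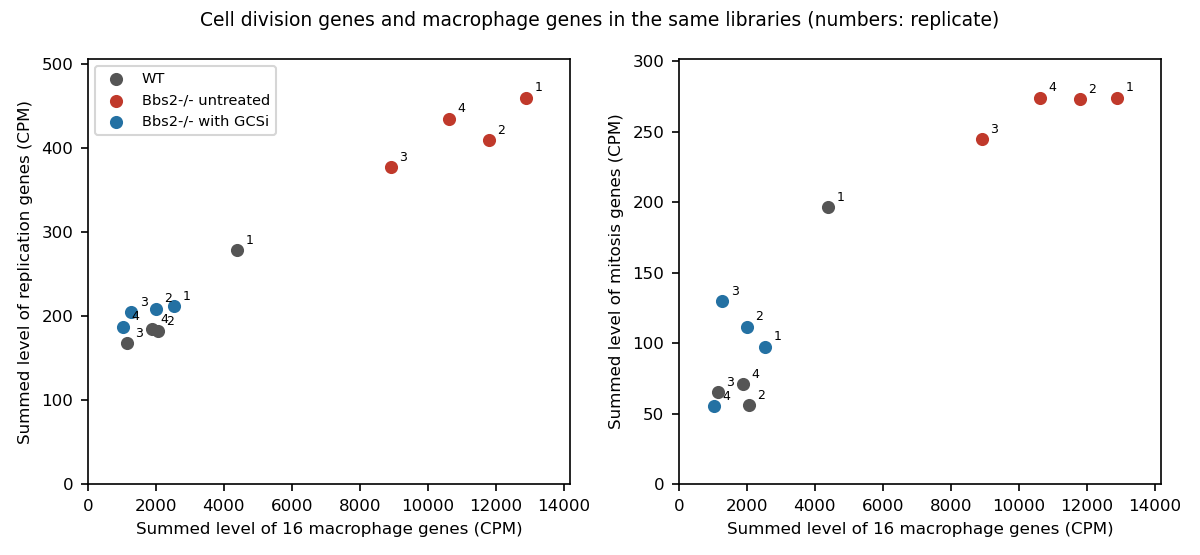
Summed CPM of the 18 replication genes (left) and of the 22 mitosis genes (right) against the summed CPM of 16 macrophage markers in each library (points coloured by group, numbered by replicate). The 4 untreated libraries lie at 8926 to 12896 CPM of macrophage markers with the highest division sums, WT 1 lies between them and the rest, and the treated libraries overlap with WT 2 to 4 on the macrophage axis.

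Markers of other cell types moved to different degrees in untreated against WT, where 19.6% of all tested genes rose and 19.7% fell. Of 12 B and plasma cell markers 9 rose, with a sum of 723 to 990 CPM in WT and 1161 to 1512 CPM in untreated libraries. Most of that sum was Ighm, at 657 to 935 CPM in WT and 807 to 1001 CPM in untreated libraries. Igkc was at 6.43 to 26.0 CPM in WT and 214 to 362 CPM in untreated libraries. Of 14 tested T and NK cell markers 5 rose, from a sum of 12.9 to 15 CPM to 23.0 to 39.7 CPM. Of 8 mast cell markers 5 rose, of 4 tested neutrophil markers 3 rose and 1 fell, and of 12 fibroblast and preadipocyte markers 7 rose. Of 12 endothelial markers 1 rose and 1 fell. Of 16 mature adipocyte markers 0 rose and 11 fell, and the sum was 43321 to 68394 CPM in WT, with WT 1 lowest, and 30398 to 35580 CPM in untreated libraries. Of 8 tested markers of ciliated epithelium 3 fell. However, WT 2 and WT 3 also had Dnah5, Dnah9 and Sntn at 0 CPM, and Foxj1 at 0.14 and 0 CPM. Adipoq and Fabp4, defining markers of adipocytes, were at 978 to 4895 CPM and at 6961 to 21330 CPM over the 12 libraries, so none of them lacked the labelled tissue. Which of these cells held the division transcripts was not tested.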

How the data were processed

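RNA was measured in 12 mouse adipose libraries by stranded mRNA sequencing, grouped by their labels. The authors deposited expected counts per gene (93.0% to 94.2% of values whole within 1e-06), rounded here to whole numbers, and a table of log2 FPKM, on the scale log2(FPKM + 1) judging by the counts of 487 genes. Per the submitters' processing notes, reads were placed on mm10. Which aligner and counter were used, and with what strand setting, is not given in the sources used here. Symbols came from the GENCODE annotation for 52207 of 53431 identifiers.

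Counts were tested with edgeR 4.0.16 in R 4.3.3 (TMM scaling, filterByExpr, robust quasi-likelihood fit of all 12 libraries by group), with Benjamini-Hochberg adjustment across the 15968 tested genes and a threshold of 0.05. A standard error is the log2 fold change divided by the square root of F. DESeq2 1.42.0, limma 3.58.1, other scalings and filters, and fits without single libraries served as alternatives. The fits were tested on simulated data. Class sums and medians carry no test. The lowest count of a member in any library was 12 for Cdc20, the scarcest by this measure, and 496 for Pcna, the most abundant.

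The members and lists were chosen with earlier results of these data known. Full statistics were given for up to 3 genes of each role with the smallest p in untreated against WT and for those not called where most of their class was, and for up to 2 genes of each context list; Bub1 in the inhibitor comparison was chosen after its value was seen. Promoters printed were those of the 2 genes of each class with the highest mean CPM and a motif before the start, passing over windows that lie on an annotated exon, a condition added after the data were seen, which left out Mcm7.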

Additional observations from a re-analysis of the deposited data

Results flagged for a closer look

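In each group of 4 libraries a library was marked where its gap to the nearest other one exceeded 0.829 of the range of the group. Of 120 groups of single genes 20 were marked. Chance marks about 1 in 20 where groups are independent. These genes share the same libraries, so the marks are not separate events and cannot be set against that rate. WT 1 accounted for 14 of them, 10 mitosis and 4 replication genes, always as the highest WT library. Among replication genes it stood at 25.8 CPM for Mcm6, 9.91 CPM for Uhrf1, 28.6 CPM for Rrm1 and 7.13 CPM for Tk1. Among mitosis genes it stood at 7.35 CPM for Ccnb1, 5.88 CPM for Ccnb2, 10.3 CPM for Foxm1, 4.68 CPM for Plk1 and 3.59 CPM for Bub1. It stood at 11.3 CPM for Tpx2, 6.75 CPM for Kif20a, 7.79 CPM for Kif23, 22.6 CPM for Top2a and 36.0 CPM for Mki67. Its sums of 279 CPM for replication and 197 CPM for mitosis genes were marked as well. WT 1 also had the highest epididymis sum, nearly all of it Crisp1, and the highest macrophage sum of the WT libraries. The part of either in these levels was not tested.

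The other marks fell on single genes in scattered libraries. Ccne2 was at 4.66 CPM in treated 3, above its group, and Cdk1 was at 2.26 CPM in treated 4, below its group. Plk1 was low in untreated 2, at 5.19 CPM, and Aurka was low in WT 3, at 2.59 CPM. Untreated 4 was high for Aurkb, at 9.11 CPM, and for Cenpe, at 10.1 CPM. The mitosis sum was low in untreated 3, at 245 CPM, where the others of its group lay at 273 to 274 CPM.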

How the results depend on the processing

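Untreated against WT depended most on the WT libraries. Without WT 2 and 3, 8 of the 40 genes were called (6 replication, 2 mitosis), with medians of 0.86 and 1.05. Called as well were 27 of 150 context genes and 3417 of the 16877 genes tested in that fit. In the fit of all libraries 6263 of 15968 genes were called. The smaller fit kept WT 1 and WT 4 as its WT libraries, and the cause of the drop was not tested. Leaving out 1 library at a time gave 25 to 36 members (11 to 14 replication, 14 to 22 mitosis), with medians of 1.0 to 1.36 and 1.26 to 2.02. Calls over all tested genes in those fits are not given here. The replication median was 0.84 on log2 FPKM and 1.42 without the 4 libraries with Foxj1 counts. The mitosis median was 1.61 with library size alone, 1.62 by limma-voom, 0.927 on log2 FPKM and 2.07 without the Foxj1 libraries.

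In treated against untreated, leaving out 1 library gave 26 to 36 members (12 to 14 replication, 13 to 22 mitosis), with medians of -1.28 to -1.15 and -1.61 to -1.24. Here too, calls over all tested genes are not given. The replication median was -1.36 with library size alone and -0.959 on log2 FPKM. In treated against WT, 0 members were called in every fit run. Members with an unadjusted p under 0.05 numbered 0 with all libraries, 14 without WT 1, 1 without WT 2 and 3, and 2 without the Foxj1 libraries. The shares of all tested genes in these edgeR fits were 10.6%, 14.9%, 8.05% and 10.2%. The replication median was -0.149 without WT 2 and 3, 0.33 without the Foxj1 libraries and -0.0354 to 0.326 without 1 library, and the mitosis median -0.198 to 0.571. All genes called were 41, and 275 by DESeq2, 24 on log2 FPKM, 2 with only both groups fitted, 1 without WT 2 and 3, 2 without the Foxj1 libraries and 3 to 49 without 1 library. Library size alone, no filter and DESeq2 each called 1 context gene.

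Small differences changed sign. Mcm7 was 0.0835 in untreated against WT with library size alone. In treated against untreated, Mcm7 was -0.106 with library size alone and -0.0484 to 0.0934 without 1 library, and Ccne2 was -0.0641, -0.032 without the Foxj1 libraries and -0.0386 to 0.169. In treated against WT without WT 2 and 3, Pcna was -0.0183 and Mki67 -0.459, and Mki67 ran from -0.172 to 1.01 without 1 library (WT 1 giving the highest value).

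The replicate numbers were not taken to pair libraries, since not every pair of deviations correlated above 0.1. The correlations were -0.021 to 0.016 between WT and untreated and -0.149 to 0.278 between WT and treated libraries. Between untreated and treated libraries they were all positive, 0.0999 to 0.308, and 3 of 4 untreated libraries correlated best with their own number, a hint from the data and not the design. With the replicate number as a block, 34 and 35 members were called as before, the mitosis median in untreated against WT was 1.59, and 9 of all genes were called in treated against WT.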
